A study of Homo sapiens with 2 samples.

Results

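The replication-dependent histone genes supply the linker histone H1 and the core histones H2A, H2B, H3 and H4 during S phase. They were taken here as the protein-coding genes of the RefSeq table of human genome build 38 whose symbols belong to the clustered histone series (H1-1 to H1-6, and the H2AC, H2BC, H3C and H4C series). The rule gave 69 of 20037 protein-coding genes, 55 of them on chromosome 6, 13 on chromosome 1 and 1 on chromosome 12. A gene had a peak when the summit of a peak lay within its span.

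The RNA came from A549 (labelled NCI-A549), a long-established line of human lung adenocarcinoma cells, and was studied by RNA immunoprecipitation sequencing (RIP-seq). The HNRNPC IP group held 1 library, made with 5 µg of antibody against HNRNPC, and the input group held 1 library with no antibody. Both came from cells in serum-containing medium, with no genetic change or treatment named in the labels. Peaks of the IP library supply every value below, and the sources used here do not state whether the input served as the caller's control. As each group had a single library, no test was made and the comparisons describe these libraries alone.

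Replication-dependent histone genes are short and mostly without introns, and their mRNAs end in a conserved stem-loop in place of a poly(A) tail. The stem-loop is bound by SLBP and the end is cut with the help of the U7 small nuclear ribonucleoprotein. HNRNPC is a nuclear protein that binds runs of U in nascent transcripts, and its binding is also affected by N6-methyladenosine, the RNA mark named in the study's title.

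The list held 23148 peaks, of which 23111 on chromosomes 1 to 22, X and Y were used. The fold enrichment, p and q of a peak are those the authors' caller assigned. Depth is unknown, as read totals are absent from the list. The reads at each summit were inferred from fold and p together, with 1 IP read scaled to 0.5355 and a pseudocount of 1. A whole number of IP reads then gave the deposited p of all 23111 peaks to within 0.001 on the −log10 scale. At the neighbouring scales of 0.535 and 0.536 this held for 0.2% and 0.8% of 500 drawn peaks. Each of the 35 histone peaks had a single solution. The background is the level that the peak caller set against the IP at the summit. It is in units in which 1 IP read counts as 0.5355, so the IP reads given below, which are unscaled, are not on its scale. Of the markers of lung epithelium, 1 of 9 had a peak (CDH1, an epithelial cadherin named after its value was seen, with 10 peaks and a best fold of 10.7), and of the markers of other cells 0 of 6 had one. A peak list does not report expression, so these counts do not test the cell type.

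Peaks lay in 35 of the 69 histone genes (50.7%, 95% exact binomial interval 38.4 to 63.0%). Of all 20037 protein-coding genes 18.4% had a peak, and of the 19968 genes other than the histones 18.3%. Histone genes are short, with a median span of 494 bp, and peaks are rare in short genes. Of the 467 other protein-coding genes with a span of 1000 bp or less, 4 had a peak (0.857%), against 30 of the 61 histone genes of that length (49.2%). Among the 11049 other genes no longer than the longest histone gene (29682 bp), 6.84% had a peak. Expression was not analysed here. A cell population with fewer cells in S phase and one with less histone mRNA per cell cannot be told apart in such bulk libraries. Intervals cover counting error only, and members of this family share sequence and are not independent.

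Histone peaks were also higher and wider than other peaks. The 35 peaks had a median fold of 8.34 (quartiles 5.51 and 11.7), against 5.76 (quartiles 4.79 and 7.22) for the 22258 peaks of other protein-coding genes. Best folds per gene with a peak differed less, with a median of 8.34 in histone genes and 7.03 in the 3650 other genes. Their median width was 388 bp, against 124 bp for the other peaks. A fold of 10 or more was reached by 12 of the 69 genes (17.4%), against 3.77% of all protein-coding genes. These shares also carry the difference in having any peak. Among genes with a peak, it was reached by 12 of 35 histone genes and by 755 of all 3685. The inferred IP reads at the summit had a median of 27 in histone peaks, against 15 in the other peaks, and the background a median of 0.282, against 0.141. Of the 100 peaks of highest fold in the list 4 were histone peaks, and so was the highest of all.

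**Figure D1:**
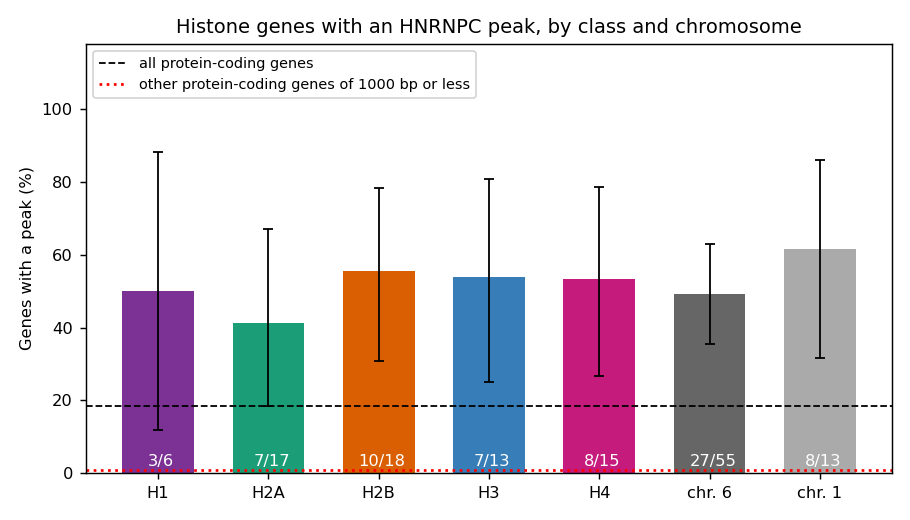
Share of replication-dependent histone genes with an HNRNPC peak (%) in the IP library, by histone class and by chromosome; bars are shares, with the counts inside, and error bars are 95% exact binomial intervals. All classes lie between 41.2% and 55.6%, above the dashed line for all protein-coding genes (18.4%) and the dotted line for other genes of 1000 bp or less (0.857%).

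Each of the 5 histone classes held genes with and without a peak. Peaks lay in 3 of 6 H1 genes (50%, interval 11.8 to 88.2%), 7 of 17 H2A genes (41.2%, 18.4 to 67.1%), 10 of 18 H2B genes (55.6%, 30.8 to 78.5%), 7 of 13 H3 genes (53.8%, 25.1 to 80.8%) and 8 of 15 H4 genes (53.3%, 26.6 to 78.7%). The intervals of all classes overlap, and those of H1 and H2A reach down to the 18.4% of all protein-coding genes. The order of the shares changed with the counting rule: with spans extended by 500 bp H2A had 58.8%, above H1, H3 and H4, and among genes of 1000 bp or less H2B had 46.2%, below H1, H3 and H4. The median of the best folds was 20.4 for H1, 13.3 for H4, 8.68 for H2B, 7.48 for H3 and 6.51 for H2A. H1 and H4 stood at the top of this order, which was kept under the alternatives tried except that H2A (7.68) passed H3 (7.48) with extended spans, although the H1 value rests on 3 genes and both of those classes also held folds under 10. The best H4C15 value in the H4 median is a summit it shares with H3C15.

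Linker histones bind the DNA that enters and leaves the nucleosome. H1-3 (NCBI gene 3007, chr6:26234212-26234987) held a single peak at chr6:26234223-26234964, where the fold was 22 and −log10 q was 38.6. Its 47 inferred IP reads give a fold of 16.4 to 29 from the counting error of the IP reads alone (95% exact Poisson interval, with the background held fixed, as for all intervals on folds that follow). The peak of H1-4 (NCBI gene 3008) at chr6:26156360-26157083 had a fold of 20.4 (15.5 to 26.3) from 54 reads. These values differ by less than their counting error. H1-5 had a fold of 9.64 (6.08 to 14.7) from 18 reads, and its interval lies below those of both others. H1-1, H1-2 and the testis-specific H1-6 had no peak.

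The promoters of the H1 genes are shown because the genes with and without a peak could differ there. They are given 5′ to 3′ as the 130 bases before the gene start (RefSeq, GRCh38.p14), with H1-3, H1-4 and H1-5 first and the genes without a peak after them. Capitals mark AAACACA (the H1 box), the motif CCAAT and the TATA box TATAAA, searched on both strands (ATTGG is CCAAT on the other strand).
H1-3: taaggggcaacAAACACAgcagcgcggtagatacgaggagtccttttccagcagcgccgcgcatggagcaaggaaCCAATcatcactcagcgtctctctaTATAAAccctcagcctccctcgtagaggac
H1-4: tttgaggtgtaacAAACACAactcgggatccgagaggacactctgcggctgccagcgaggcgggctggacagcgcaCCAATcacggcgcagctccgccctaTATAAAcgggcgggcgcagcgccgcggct
H1-5: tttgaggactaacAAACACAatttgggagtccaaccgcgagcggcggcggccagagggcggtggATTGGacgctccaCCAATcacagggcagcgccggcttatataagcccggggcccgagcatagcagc
H1-2: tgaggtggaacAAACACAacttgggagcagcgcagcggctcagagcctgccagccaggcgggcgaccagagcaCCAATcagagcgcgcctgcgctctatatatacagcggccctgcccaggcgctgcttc
H1-6: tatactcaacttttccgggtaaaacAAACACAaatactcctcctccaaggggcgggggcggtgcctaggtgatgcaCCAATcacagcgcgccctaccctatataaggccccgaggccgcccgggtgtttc
H1-1: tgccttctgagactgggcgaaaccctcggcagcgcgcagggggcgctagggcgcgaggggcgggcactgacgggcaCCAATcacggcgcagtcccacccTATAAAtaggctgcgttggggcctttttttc
Within the 250 bases before the start all 6 H1 genes held AAACACA and CCAAT; in H1-1 the box AAACACA lies farther upstream than the stretch shown. AAACACA occurred in 3.72% of 15843 protein-coding promoters and in none of the other histone promoters searched. Both boxes were thus present in H1 genes with and without a peak.

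Histone H4 is the most conserved core histone and is encoded by many copies. H4C3 (NCBI gene 8364, chr6:26103933-26104337) had the highest fold of the whole list. Its peak at chr6:26103945-26104316 covered 91.9% of the span, where the fold was 31.5 (24.4 to 40) and −log10 q was 62.5. The summit held 63 inferred IP reads over a background of 0.103, the lowest level in the list. This level is not particular to H4C3: 47.9% of all peaks and 7 of the 35 histone peaks were at or near it.

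H4C2 (fold 18.3, 13.2 to 24.8), H4C8 (16.2, 11.5 to 22.3), H4C5 (15, 10.6 to 20.6) and H4C13 (11.6, 7.6 to 17.1) followed. The interval of H4C3 overlaps that of H4C2 and lies above those of H4C8, H4C5 and H4C13. H4C1 had a fold of 6.12 from 21 reads and H4C14 a fold of 4.31 from 27 reads. H4C15 held 2 peaks: one near its 5′ end had a fold of 3.52, and the other, with 7.09, had its summit within H3C15, which lies inside the annotated H4C15 span. H4C4, H4C6, H4C7, H4C9, H4C11, H4C12 and, on chromosome 12, H4C16 had no peak.

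The H4 copies already differ in bases over the first codons. The stretches below run from the first ATG to base 50 after the start in the RefSeq promoter table (GRCh38.p14). This start lies 81 bp inside the annotated span for H4C15 and at the 5′ end of the span for the others. Bases that lie in a peak are in capitals. H4 genes with a peak and a promoter entry come first. Of the 7 H4 genes without a peak only H4C9 and H4C6 are shown after them.
H4C13: ATGTCTGGGCGCGGCAAAGGCGGGAA
H4C2: ATGTCTGGTCGCGGCAAAG
H4C5: ATGTCTGGTCGCGGC
H4C8: ATGTCTGGCCGTGGT
H4C15: atGTCCGGCAGAGGAAAGGGCG
H4C14: atgtccggcagaggaaagggcg
H4C9: atgtcaggacgcggcaaaggagg
H4C6: atgtctggtagaggcaa
In H4C13, H4C2, H4C5 and H4C8 the peak covers the whole stretch. In H4C15 it begins within the start codon, and in H4C14 it lies farther downstream. H4C14 and H4C15 are identical over this stretch and over their whole 300-base promoter windows, so reads from these copies may not be told apart. How reads that match several copies were placed is not given in the sources used here, and values of near-identical copies are uncertain.

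H4 promoters lack the CCAAT box more often than the other classes and mostly carry the H4 box, GGTCCG, ahead of the TATA region. It is shown here in capitals with TATAAA. H4C2, H4C8 and H4C5 have a peak; H4C11 and H4C4 have none (130 bases before the start).
H4C2: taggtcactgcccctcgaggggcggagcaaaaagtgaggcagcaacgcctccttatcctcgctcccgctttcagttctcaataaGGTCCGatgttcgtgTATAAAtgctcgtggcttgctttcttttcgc
H4C8: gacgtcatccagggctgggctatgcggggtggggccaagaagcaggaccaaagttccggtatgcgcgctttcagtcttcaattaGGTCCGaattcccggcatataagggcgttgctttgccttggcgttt
H4C5: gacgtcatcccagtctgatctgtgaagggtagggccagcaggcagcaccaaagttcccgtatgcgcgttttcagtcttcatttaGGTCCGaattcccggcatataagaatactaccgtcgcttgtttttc
H4C11: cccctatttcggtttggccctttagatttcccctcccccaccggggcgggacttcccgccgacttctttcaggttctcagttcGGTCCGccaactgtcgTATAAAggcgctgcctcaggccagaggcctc
H4C4: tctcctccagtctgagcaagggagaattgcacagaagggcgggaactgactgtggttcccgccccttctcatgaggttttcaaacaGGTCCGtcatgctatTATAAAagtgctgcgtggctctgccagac
On either strand of the 250 bases, 12 of 13 H4 promoters held GGTCCG, against 12.1% of all protein-coding promoters. It was also found in 1 of 16 H2A, 1 of 18 H2B and 1 of 11 H3 promoters. CCAAT was found in 3 of 13 H4 promoters and in every H1, H2A, H2B and H3 promoter searched (6, 16, 18 and 11), against 34.5% of all. The H3 count takes in H3C4, whose promoter window is the same as that of H2AC7. GGTCCG was added to the search after the letters had been seen.

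**Figure D2:**
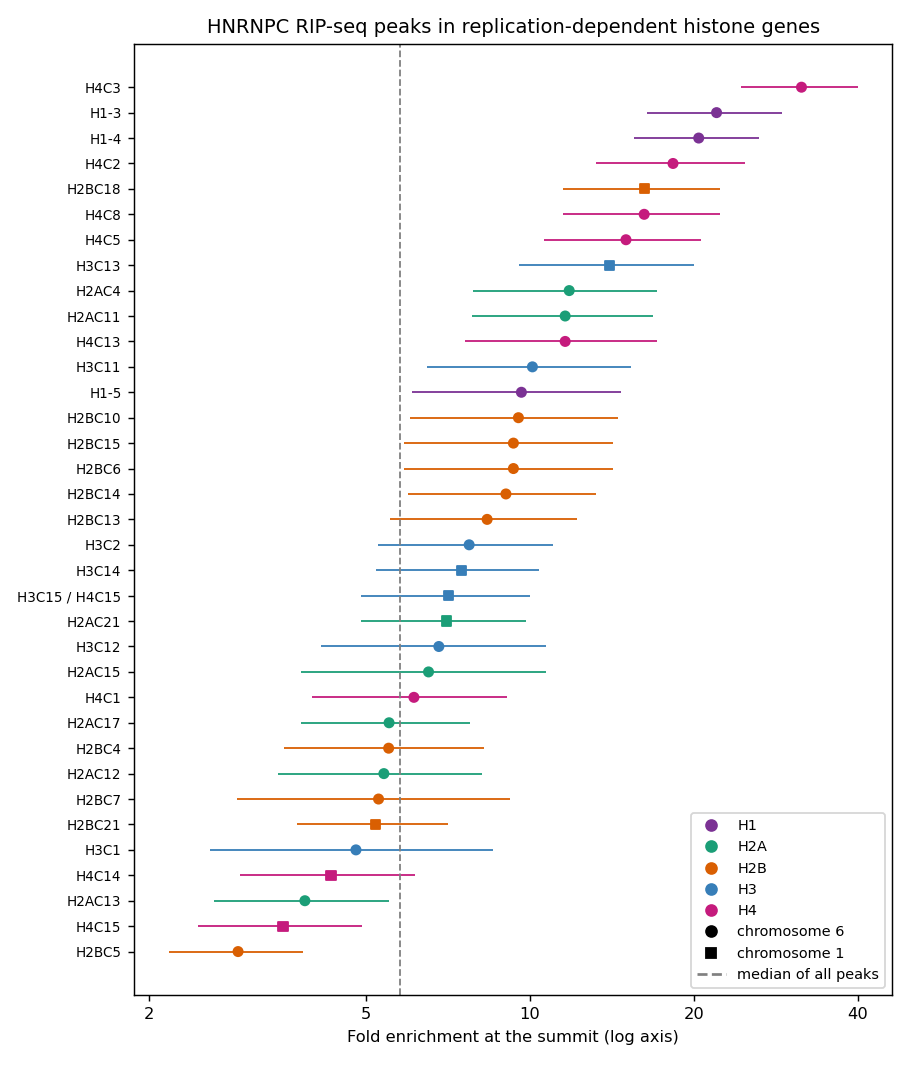
Fold enrichment at the summit (log axis) of the 35 HNRNPC peaks in histone genes, with 95% Poisson intervals from the inferred IP reads, coloured by class; circles are genes on chromosome 6 and squares genes on chromosome 1. H4C3 stands at 31.5, followed by H1-3 and H1-4, and the lowest value, 2.91, belongs to H2BC5; the dashed line is the median of all peaks (5.76), and the peak shared by H3C15 and H4C15 is drawn once.

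H2A and H2B form the dimers on either side of the H3 and H4 tetramer. The highest H2B fold belonged to H2BC18 on chromosome 1, with 16.2 (11.5 to 22.3) from 34 reads, in a peak at chr1:149811907-149812355. On chromosome 6 the folds of H2BC10, H2BC6, H2BC15, H2BC14 and H2BC13 were 9.52, 9.32, 9.32, 9.03 and 8.34. These 5 intervals overlap throughout. H2BC4 had a fold of 5.5, H2BC7 of 5.27 and, on chromosome 1, H2BC21 of 5.2.

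H2BC5 had the lowest fold of all histone genes with a peak, 2.91 (2.17 to 3.83). Its summit held 47 inferred IP reads, as many as that of H1-3, but over a background of 8.0, against 0.188 at H1-3. No peak was found in H2BC3, H2BC8, H2BC9, H2BC11, H2BC12, H2BC17, H2BC26 or the testis-specific H2BC1.

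H2A folds were lower. H2AC4 had 11.8 (7.84 to 17.1) and H2AC11 had 11.6 (7.82 to 16.8), whereas H2AC21, H2AC15, H2AC17, H2AC12 and H2AC13 had 7.03, 6.51, 5.51, 5.39 and 3.86. The median background at H2A summits was 1.07, against 0.188 at H1 and 0.282 at H4 summits. Peaks were absent from H2AC6, H2AC7, H2AC8, H2AC14, H2AC16, H2AC18, H2AC19, H2AC20, H2AC25 and the testis-specific H2AC1.

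Many H2A and H2B genes are divergent neighbours that share the DNA between their start sites. There were 12 pairs of H2A and H2B genes within 500 bp, separated by 193 to 247 bp, of which 11 had opposite strands in RefSeq and 1 had no strand given here. Both genes had a peak in 2 pairs, H2AC13 with H2BC13 and H2AC15 with H2BC15. In 3 pairs the H2A gene alone had a peak, in 4 pairs the H2B gene alone, and in 3 pairs neither. Where both had a peak the H2A fold was lower (3.86 at H2AC13 and 8.34 at H2BC13, 6.51 at H2AC15 and 9.32 at H2BC15). The intervals overlapped in the second pair and narrowly missed in the first (5.52 to 12.2 for H2BC13, 2.63 to 5.51 for H2AC13). They hold the background fixed and so leave out its own counting error. In the first pair the inferred IP reads ran the other way, with 23 at H2BC13 over a background of 0.597 and 27 at H2AC13 over a background of 3.0.

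The octamer ATTTGCAT is the H2B promoter element bound by POU2F1. It is marked here with CCAAT and TATAAA in H2BC18 and H2BC10, which had a peak, and in H2BC8, which had none (130 bases before the start, RefSeq, GRCh38.p14).
H2BC18: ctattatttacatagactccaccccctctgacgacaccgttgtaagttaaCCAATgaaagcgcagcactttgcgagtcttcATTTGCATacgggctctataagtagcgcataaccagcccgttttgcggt
H2BC10: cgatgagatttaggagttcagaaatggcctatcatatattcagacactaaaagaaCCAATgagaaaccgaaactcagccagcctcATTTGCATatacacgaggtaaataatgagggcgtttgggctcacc
H2BC8: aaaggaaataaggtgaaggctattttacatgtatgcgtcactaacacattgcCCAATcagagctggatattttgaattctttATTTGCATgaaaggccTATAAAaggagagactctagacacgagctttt
On either strand, 14 of 18 H2B promoters and 11 of 16 H2A promoters held the octamer, against 1.67% of all protein-coding promoters; paired genes share this DNA. Over all classes, promoters were found for 64 histone genes and not for H4C1, H4C3, H2AC12, H3C11 and H3C12. H3C4 and H2AC7, both without a peak, have the same promoter window and are counted separately. The octamer was found in 11 of 30 genes with a peak and in 15 of 34 without. TATAAA was found in 20 of the 30 with a peak (66.7%) and in 22 of the 34 without (64.7%), against 9.35% of all promoters. CCAAT was found in 83.3% with a peak and in 85.3% without. Genes with and without a peak thus held these elements at similar shares.

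Histone H3 carries much of the regulatory modification of chromatin. The highest H3 fold belonged to H3C13 on chromosome 1, with 14 (9.54 to 20) from 27 reads, in a peak at chr1:149813244-149813674. H3C11 had 10.1 (6.46 to 15.3). H3C2, H3C14, H3C15, H3C12 and H3C1 had 7.73, 7.48, 7.09, 6.8 and 4.79. The lowest of them, H3C1, rested on 8 inferred IP reads, the fewest at any histone summit. All 3 H3 genes of chromosome 1 had a peak, as did 4 of 10 on chromosome 6. H3C3, H3C4, H3C6, H3C7, H3C8 and H3C10 had none.

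Chromosome 6 held peaks in 27 of 55 histone genes (49.1%, 95% exact interval 35.4 to 62.9%) and chromosome 1 in 8 of 13 (61.5%, 31.6 to 86.1%). The intervals overlap, and among genes of 1000 bp or less both shares were 50% (25 of 50 on chromosome 6 and 5 of 10 on chromosome 1). Of other protein-coding genes 18.2% had a peak on chromosome 6 and 18.4% on chromosome 1. Genes were grouped into clusters where gaps were under 200 kb. The main chromosome 1 cluster (chr1:149782689-149887965) held peaks in 8 of 11 genes, and the H2AC25 and H2BC26 pair elsewhere on this chromosome had none. On chromosome 6 the cluster at chr6:26017032-26285534 held peaks in 15 of 32 genes, that at chr6:27132316-27147562 in 2 of 5 and that at chr6:27807479-27893891 in 10 of 16. The H2AC1 and H2BC1 pair at chr6:25726063-25727345, which is expressed in testis, had none. H4 and H3 genes had a peak in all 5 cases on chromosome 1, whereas H2A genes did in 1 of 5. The exact intervals overlap, with 15.8 to 100% for H4, 29.2 to 100% for H3 and 0.505 to 71.6% for H2A. Near-identical copies are counted separately here: H4C14 and H4C15, H3C14 and H3C15, and H2AC18 and H2AC19. On chromosome 6 the shares were 6 of 12 for H2A, 6 of 12 for H4, 8 of 15 for H2B and 4 of 10 for H3. The H4 share counts H4C11 and H4C12 separately, both without a peak. Their promoter windows are identical at 295 of 300 bases (98.3%).

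Over all classes together, median fold was higher on chromosome 6 and median inferred IP reads were higher on chromosome 1. The median best fold was 9.32 for the chromosome 6 genes and 7.09 for the chromosome 1 genes. The order was the other way within H2A (6.01 on chromosome 6, 7.03 on chromosome 1), H2B (8.68, 10.7) and H3 (7.26, 7.48). These chromosome 1 values rest on 1, 2 and 3 genes with a peak. For H4 the medians were 15.6 and 5.7, and all H1 genes lay on chromosome 6. The median of IP reads was 23 on chromosome 6 and 31 on chromosome 1. The background differed too, with a median of 0.188 on chromosome 6 and 1.43 on chromosome 1, and a level of 1 or more at 7 of 27 peaks on chromosome 6 and at 6 of 8 on chromosome 1. The chromosome 1 cluster holds duplicated genes. The longest run shared by the 300-base promoter windows was 300 bases for H4C14 and H4C15, 296 for H3C14 and H3C15 and 299 for H2AC18 and H2AC19. H3C14 and H3C15 had 31 and 29 inferred IP reads, folds of 7.48 and 7.09 and peaks of 407 and 435 bp. H4C14 and the 5′ peak of H4C15 had 27 and 31 reads over backgrounds of 2.59 and 4.0, but their peaks differed in extent (87 and 274 bp) and their summits lay 271 and 57 bp after the start in the promoter table. H2AC18 and H2AC19 both had no peak. The part of read placement in these values was not tested.

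**Figure D3:**
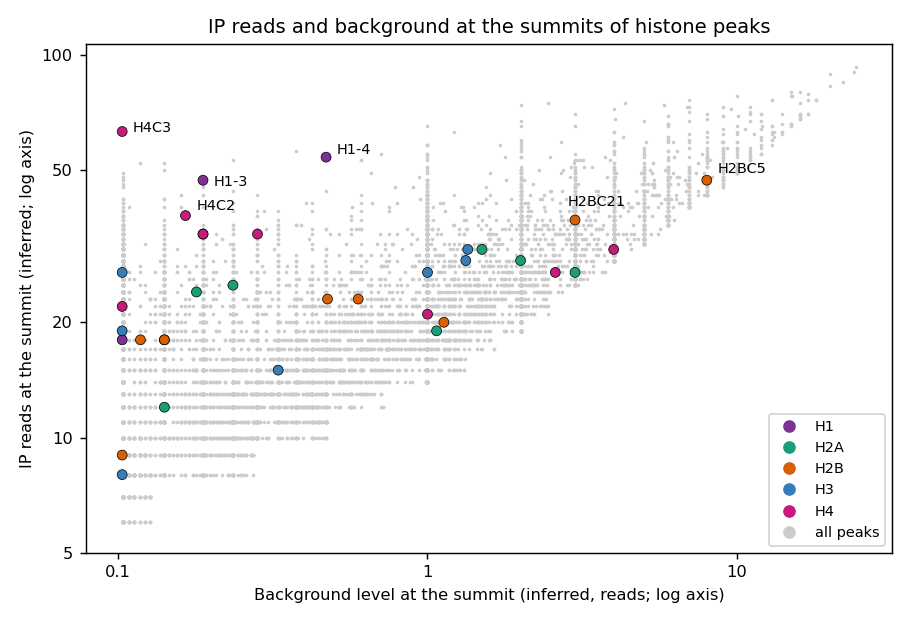
Inferred IP reads at the summit against the background level (both in reads, log axes) for the histone peaks, coloured by class, over all 23111 peaks in grey. H4C3 holds 63 reads over the lowest background, a level that many peaks share, and H2BC5 holds 47 over a background of 8.0. Their folds are 31.5 and 2.91.

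Fold has the background in its denominator, so peaks of higher background have lower folds at equal reads by construction. The 12 peaks with a fold of 10 or more all had a background of 0.47 or less, with a median of 34 IP reads, against a median of 23 in the 23 peaks of lower fold. High-fold peaks thus had both a low background and more IP reads. Fold has the IP reads in its numerator, so a split by fold favours both by construction. The 13 peaks with a background of 1 or more had a highest fold of 7.73 and a median of 5.5, although their median of 29 IP reads was above the 23 of the 22 peaks with a lower background, whose median fold was 10.9. Over all peaks in the list the medians were 4.96 at a background of 1 or more and 6.24 below it. A lower fold therefore does not show fewer IP reads. The part of the background in the order of the folds was not tested.

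**Figure D4:**
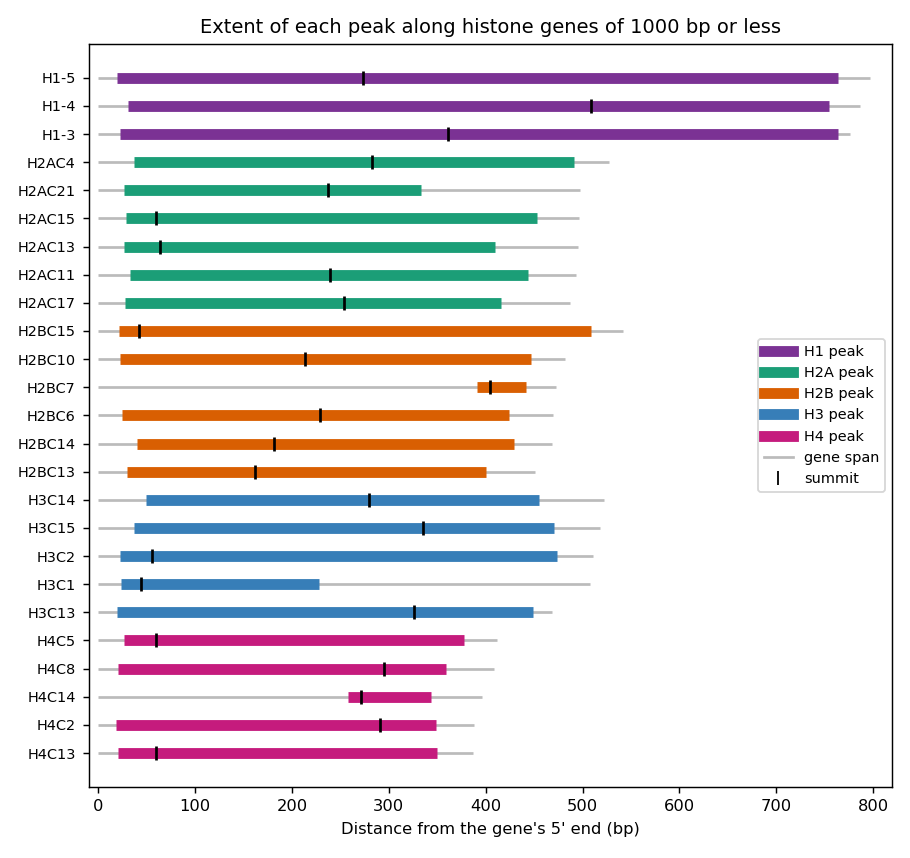
Extent of the HNRNPC peaks along the 25 histone genes of 1000 bp or less with a peak and a strand, as distance from the 5′ end in bp; grey lines are gene spans, coloured bars are peaks and black ticks are summits. The bars run from a median of 27 bp after the 5′ end to a median of 38 bp before the 3′ end, and H2BC7, H4C14 and H3C1 are the short exceptions.

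Histone peaks covered most of the gene. In the 30 genes of 1000 bp or less with a peak, the peak covered a median of 84.5% of the span (quartiles 77.7 and 87.7%), and 24 of the 30 were covered to 70% or more. All 30 peaks lay wholly inside the span. Under 50% was covered in 5 genes, with the lowest value, 11.0%, at H2BC7. H3C1 was covered to 40.4% and H4C14 to 22%. In the 25 of these genes with a strand in RefSeq, the peak began a median of 27 bp after the 5′ end (quartiles 23 and 33 bp) and stopped a median of 38 bp before the 3′ end (quartiles 33 and 50 bp). The stretch before the 3′ end is where the stem-loop of these mRNAs is known to lie. A peak is bounded by read coverage, so its edges do not mark a binding site.

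Summits had no common place along the gene. They lay at a median of 47.7% of the span from the 5′ end, with quartiles of 15.5 and 64.7%. Of the 25 summits 15 were nearer to the 5′ end than to the 3′ end. At H2BC15, H3C1, H3C2, H4C5, H4C13, H2AC15 and H2AC13 the summit lay 42 to 64 bp from the 5′ end, and at H2BC7 it lay 404 bp from it.

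In genes with an annotated span over 1000 bp most peaks were near the 5′ end. Of 8 such histone genes 5 had a peak. H2BC18 spans 29682 bp, and its summit lay 217 bp from the 5′ end. The summits of H2BC4, H2BC5 and H2BC21 lay 57, 217 and 63 bp from it. Of the 6 peaks of these genes 5 had a summit within 500 bp of the 5′ end, and the exception was the H3C15 peak inside H4C15.

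Runs of at least 5 U were sought in the first 50 transcribed bases, the only transcribed sequence at hand. They occurred in 15 of 64 histone genes (23.4%), against 2.4% of 15843 protein-coding genes. The share was 23.3% (7 of 30) in genes with a peak and 23.5% (8 of 34) in those without. No match says only that the letters are absent from this window.

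Of 15 histone variant genes, listed for mRNA with a poly(A) tail or for expression outside S phase, 1 had a peak (6.67%, 95% exact interval 0.169 to 31.9%). Their median span was 3346 bp, and the share lies near the 6.84% of other genes up to 29682 bp. The interval also includes the 18.4% of all protein-coding genes, and 2 variant genes were counted with spans extended by 500 bp. The gene was H2AZ2, which encodes an H2A.Z variant, with 6 peaks over 21238 bp and a best fold of 4.8.

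Of 30 genes that act in histone mRNA transcription, 3′ end formation or turnover, 12 had a peak (40%, interval 22.7 to 59.4%), against 18.4% of protein-coding genes. These genes are long, with a median span of 38100 bp, and of the 8919 other protein-coding genes longer than 29682 bp 32.4% had a peak, which lies within the interval. Their 74 peaks were narrow, with a median width of 110 bp, against 388 bp for the 35 histone peaks. Among the cleavage and end-processing factors CPSF2, a subunit of the cleavage complex, had 12 peaks and a best fold of 12.1, ZNF473, a component of the U7 particle, had 3 and 8.19, CASP8AP2, also a U7 partner, had 1 and 3.82, and CSTF3, a cleavage stimulation factor subunit, had 1 and 4.27. ERI1, the exonuclease that trims the stem-loop, had 3 peaks and a best fold of 11.1.

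XRN1, a 5′ to 3′ exonuclease, had 14 peaks and a best fold of 6.24. The uridylyltransferase gene TUT7 had 7 peaks and 6.73, the nucleotidyltransferase gene TENT4A had 3 and 9.6, and NCBP1, the larger cap-binding subunit, had 6 and 7.22. Among the transcription factors POU2F1 had 19 peaks and a best fold of 8.57, NPAT, the coactivator of histone transcription, had 3 and 4.79, and NFYA, a subunit of the CCAAT-binding factor, had 2 and 6.24. The other 18 genes had no peak, among them SLBP, which was named after its value was seen.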

How the data were processed

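The deposited peak list of the IP library gives, per row, a region, a summit offset, a score, a fold enrichment (a ratio) and the −log10 of p and q, all made by the authors. Per the submitters' processing notes the tools were HISAT2, MACS2 and bedtools and the build hg38; versions, settings and the control are not given in the sources used here. The 37 rows on other contigs were left out. Coordinates are 1-based. Gene spans, promoters and strands came from RefSeq, GRCh38.p14.

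A gene was called when a summit lay in its span, and a summit in 2 spans counted for both. Every histone gene with a peak was named, and every gene with a peak in the comparison lists. Members and lists were chosen with earlier results of these data known. Assignment and read inference were tested on simulated data. Alternatives took a stricter q (0.001), a minimum fold (4), any base or at least 50% of the peak in the span, spans extended by 500 bp, and no summits shared between genes. Versions used were Python 3.11.15, matplotlib 3.10.9, scipy 1.17.1, pandas 2.3.3 and numpy 2.4.6.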

Additional observations from a re-analysis of the deposited data

How the results depend on the processing

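Of 134 values recomputed for 21 results under the alternatives, 131 stayed within 1.5 times the reported count, or, for medians, within the binomial interval of the reported median. Part of this agreement was fixed in advance. All 36 pairs of a histone gene and a peak lay wholly inside the span, so the rules on any base or at least 50% of the peak could drop none. For the 3 H1 genes with a peak the interval of the median is their full range. The tally therefore cannot show that the values are stable. The number of histone genes with a peak ranged from 30 to 40 and the median best fold from 8.34 to 9.18. With spans extended by 500 bp, 40 genes were counted, which by construction takes in neighbours of genes with a peak, H2A had 10 of 17 genes and the histone variant genes with a peak numbered 2. A further alternative, chosen after seeing the data like those on folds by class and chromosome, kept only the 61 genes of 1000 bp or less. By construction it has fewer genes; it gave 6 of 13 H2B genes, and 25 of 50 genes on chromosome 6 and 5 of 10 on chromosome 1, so that the chromosomes no longer differed in share. The order of the classes by share was thus not kept. Over all classes together, the median best fold was higher on chromosome 6 than on chromosome 1 under every alternative tried. The alternatives did not compare the chromosomes within classes. No paired analysis was possible because each group has 1 library. The inferred reads limit precision: histone summits held 8 to 63 reads.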

Other observations

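In the cluster at chr6:26017032-26285534 the list held 18 peaks, of which 15 had their summit in a histone gene and 3 in no gene span of the RefSeq table used. These 3 lay at chr6:26173370-26173576 with a fold of 3.9 from 20 inferred IP reads, at chr6:26173791-26174065 with a fold of 6.63 from 19 reads, and at chr6:26195571-26195989 with a fold of 4.79 from 8 reads. The last was 419 bp wide, near the median width of the histone peaks (388 bp). In the chromosome 1 cluster and the 2 other chromosome 6 clusters with peaks, all 8, 2 and 10 peaks had their summit in a histone gene.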
